A study of Mus musculus with 4 samples.

Results

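The 6 genes described here are the A-type potassium channel subunits Kcnd2 and Kcnd3 and the channel partners Kcnip1, Kcnip2, Kcnip3 and Kcnip4. They were chosen by name, 6 of the 300 genes of a custom Xenium panel, and were followed over every retinal ganglion cell (RGC) type, every retina and every position in the table. Xenium is an imaging assay that decodes single RNA molecules as puncta inside tissue sections, and RGCs are the neurons that carry the output of the eye to the brain. All retinas belonged to 1 group of wild-type C57BL/6 mice kept without manipulation. Sections were 20 µm thick and lay in the plane of the retina. The labels used here give no age and do not say how many mice supplied the 5 retinas. No error or p-value therefore measures spread between mice, and the spread between retinas may be technical. An SD is taken over retinas, while an SE and its p-value come from a model that shares information on spread over genes. Such an SE can be smaller than the spread of 1 gene over retinas alone would give. The table held 131379 cells, each given by the authors to 1 of 45 types.

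Kcnd genes encode the pore-forming subunits of Kv4 channels, which open near rest, inactivate within a short time and so delay or space the firing of a neuron. Kcnip genes encode KChIPs, small calcium-binding proteins that sit on the inner end of Kv4 channels, bring them to the cell surface and change how fast they inactivate. RGCs are known to carry such A-type currents, and RGC types differ in how they fire.

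The 6 genes together held 2.16% of all puncta. They came to 109148 puncta for Kcnd2, 178991 for Kcnd3, 197365 for Kcnip1, 26750 for Kcnip2, 52220 for Kcnip3 and 351837 for Kcnip4. Retinas held 13127 to 41048 cells with medians of 285 to 326 puncta per cell over the panel, and the fewest cells were in retinas 3 and 5. No cell had the same counts of all 300 genes as another cell. The 6 RGC markers of the panel (Rbpms, Pou4f2, Pou4f3, Isl2, Slc17a6 and Nefh) summed to 77.6 to 83.7 puncta per 1000 panel puncta over the retinas. Type 44_Novel was lowest of the 45 types in them, at 44.98, and highest in the markers of Müller glia (5 genes), microglia (2), endothelium (1), pericytes (1) and rods (3). Levels are given as puncta of a gene per 1000 panel puncta of the same cells, with the mean and SD over the 5 retinas. The efficiency of each gene's probes is not known, so levels are set against each other between types and not between genes. The authors may have used these same genes to assign the types, so levels by type are given as a description and were not tested.

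In the mouse genome (GRCm38.p6, RefSeq), the members lie apart: Kcnd2 on chromosome 6, Kcnd3 on 3, Kcnip1 on 11, Kcnip2 on 19, Kcnip3 on 2 and Kcnip4 on 5. Their genes differ in length, from 24.1 kb for Kcnip2 to 1136 kb for Kcnip4. The 250 bases before a transcript start are shown for the pair of genes that rose and fell together over types, Kcnd2 and Kcnip4, and for Kcnip2, the gene most concentrated in 1 type. They are Kcnd2 (chr6:21215096-21215345, plus strand), the 2 listed starts of Kcnip4 (chr5:48599683-48599932 and chr5:49285660-49285909, minus strand) and Kcnip2 (chr19:45816064-45816313, minus strand). Each runs 5′ to 3′ on the gene's strand, with a searched motif in capitals.
Kcnd2: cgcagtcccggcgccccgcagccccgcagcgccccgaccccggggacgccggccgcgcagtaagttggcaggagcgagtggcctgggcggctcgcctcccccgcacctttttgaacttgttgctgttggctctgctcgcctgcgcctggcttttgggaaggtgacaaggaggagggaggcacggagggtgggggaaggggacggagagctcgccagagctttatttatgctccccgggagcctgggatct
Kcnip4, chr5:48599683-48599932: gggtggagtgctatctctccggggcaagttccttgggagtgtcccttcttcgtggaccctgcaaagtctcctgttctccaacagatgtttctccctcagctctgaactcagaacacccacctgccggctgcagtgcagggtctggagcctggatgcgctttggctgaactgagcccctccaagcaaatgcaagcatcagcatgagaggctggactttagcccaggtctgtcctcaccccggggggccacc
Kcnip4, chr5:49285660-49285909: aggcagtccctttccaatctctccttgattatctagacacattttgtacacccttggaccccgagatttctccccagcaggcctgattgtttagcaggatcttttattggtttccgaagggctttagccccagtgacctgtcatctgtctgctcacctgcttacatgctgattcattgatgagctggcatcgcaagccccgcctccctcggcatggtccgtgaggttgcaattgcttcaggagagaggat
Kcnip2: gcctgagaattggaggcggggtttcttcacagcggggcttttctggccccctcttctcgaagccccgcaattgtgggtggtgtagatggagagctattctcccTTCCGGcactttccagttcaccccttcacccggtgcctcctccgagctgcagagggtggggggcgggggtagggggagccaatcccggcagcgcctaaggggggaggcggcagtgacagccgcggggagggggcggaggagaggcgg
The motifs searched on both strands were the homeodomain core TAATTA, the T-box half-site CACACCT, the ETS core CCGGAA, the E-box CACGTG and the TATA box TATAAA, held by 4.84%, 5.12%, 12.1%, 6.04% and 12.3% of 32536 mouse promoter windows of this length. Of the 11 starts listed for the 6 genes, 1 held a match, the ETS core in Kcnip2, on the other strand. The match is a description of the letters only.

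Kcnd2, which encodes the main somatodendritic A-type subunit of many central neurons, was concentrated in few types. In type 30_Novel its level was 12.3, 15.6, 13.2, 13.6 and 12.8 puncta per 1000 in retinas 1 to 5 (13.5 ± 1.27, SD, n = 5). Type 23_W3D2 followed with 9.70, 12.4, 11.5, 11.6 and 10.4 (11.1 ± 1.07). Within each retina 30_Novel lay above 23_W3D2, although the ranges over retinas overlapped, and retina 2 was the highest in both. Types 34_Novel (8.18 ± 0.658), 03_FminiON (6.88 ± 0.764) and 06_W3B (5.52 ± 0.736) came next, each above the following type in 5 of 5 retinas and by more than the larger SD. The lowest types were 39_Novel (0.326 ± 0.0849), 35_Novel (0.360 ± 0.151) and 25_Novel (0.416 ± 0.174), and these did not differ beyond their SDs. The highest type stood 9.41-fold over the median type, whose level was 1.44, and 41.5-fold over the lowest. Of the 45 types, 8 lay over 2 times the median level and 12 under 0.5 times. In cells thinned to 100 puncta, a step that gives each cell the same depth, 69.9% ± 4.04 of 30_Novel cells held at least 1 Kcnd2 punctum and 2.94% ± 1.21 of 39_Novel cells did.

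Kcnd3, the other Kv4 subunit on the panel, had a flatter profile with its peak in other types. In 11_Novel its level was 10.7, 11.4, 10.8, 10.8 and 9.86 in retinas 1 to 5 (10.7 ± 0.538). In 35_Novel it was 8.24, 10.5, 9.92, 9.09 and 8.40 (9.24 ± 0.983), and in 39_Novel 8.07, 9.17, 8.18, 7.77 and 8.00 (8.24 ± 0.544). These 3 types kept their order within every retina, and 35_Novel and 39_Novel are the same types that were lowest in Kcnd2. They were followed by 21_Tbr1_S2 (6.84 ± 0.499) and 25_Novel (6.79 ± 0.2996), which did not differ beyond their SDs. At the other end, 07_Novel held 0.909, 0.948, 1.08, 0.874 and 1.17 (0.996 ± 0.124). Type 03_FminiON, among the highest for Kcnd2, was next to lowest for Kcnd3 at 1.52 ± 0.121, and 22_M5 lay at 1.61 ± 0.259. The highest type stood 2.78-fold over the median type of 3.85 and 10.7-fold over the lowest.

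**Figure D1:**
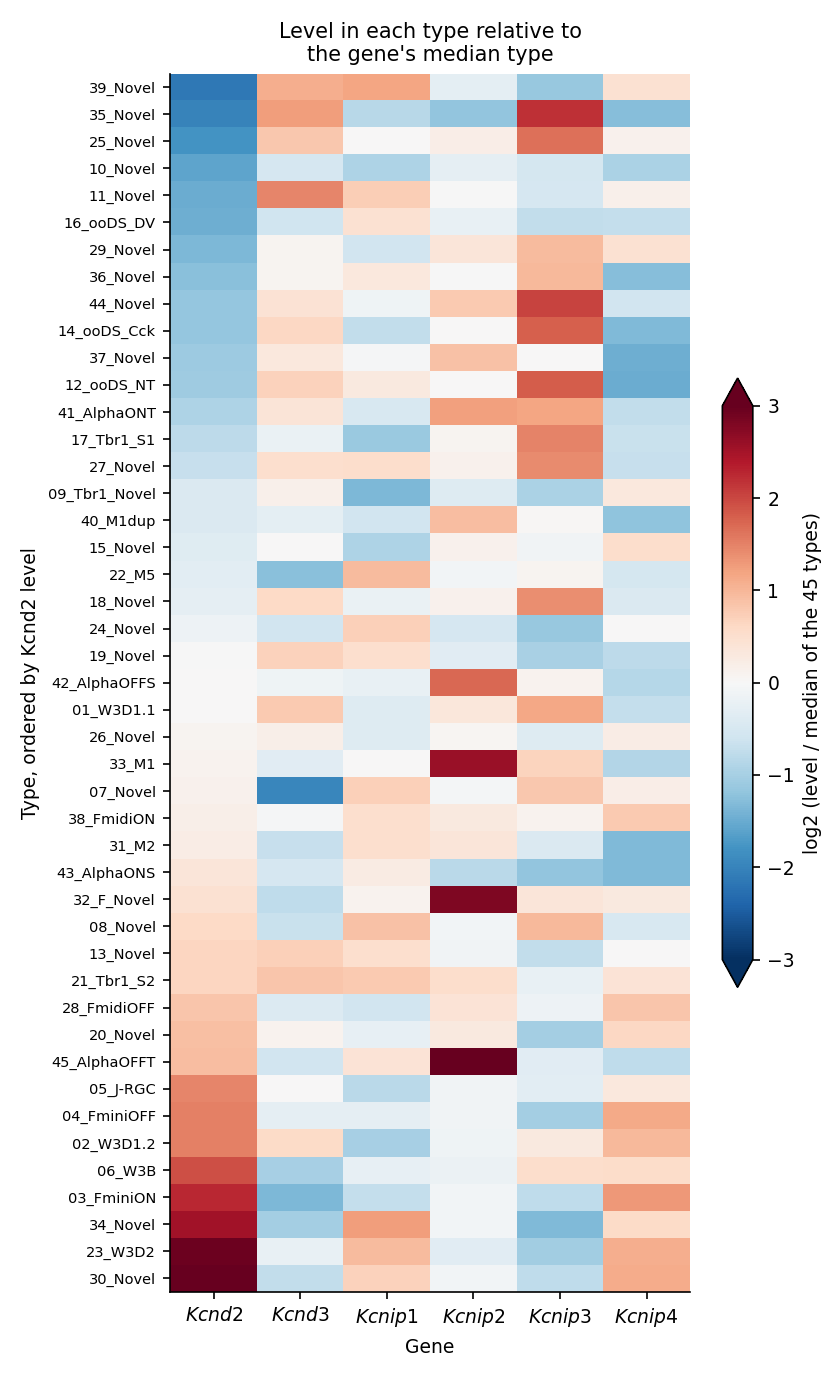
Level of each gene (columns) in each of the 45 types (rows, ordered by Kcnd2), as the log2 ratio of the mean over 5 retinas to the gene's median type, with red above and blue below it. Rows at the bottom are high in Kcnd2 and mostly pale or blue in Kcnd3, and the column of Kcnip2 is dark in 45_AlphaOFFT, 32_F_Novel and 33_M1.

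Over types, the 2 Kv4 genes ran opposite ways. The correlation of their log2 levels over the 45 types was r = -0.49, a description over types that share the same retinas and panel totals. Of the 22 types above the median of Kcnd2, 6 were also above the median of Kcnd3. The log2 ratio of Kcnd2 to Kcnd3 puncta was 2.44, 2.52, 2.57, 2.73 and 2.49 in 30_Novel in retinas 1 to 5, which is 4.10 above the median type. In 39_Novel it was -5.21, -4.44, -4.38, -4.86 and -4.59, which lies at -3.14 relative to the median type. The ranges of these types were far apart in every retina. Further types well above the median type in this ratio were 03_FminiON (by 3.73), 34_Novel (by 3.67), 23_W3D2 (by 3.31) and 06_W3B (by 3.06).

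Kcnip4, a KChIP with splice variants known to suppress fast inactivation of Kv4 channels, was highest in the F-mini and several W3 types. In 03_FminiON its level was 17.3, 21.02, 16.6, 18.0 and 17.9 in retinas 1 to 5 (18.2 ± 1.70). In 04_FminiOFF it was 15.8, 18.3, 15.7, 16.2 and 14.6 (16.1 ± 1.32). Type 03_FminiON lay above 04_FminiOFF in each of the 5 retinas, with ranges over retinas that overlapped and the highest value of both in retina 2. Types 30_Novel (15.8 ± 0.892), 23_W3D2 (15.6 ± 1.796) and 02_W3D1.2 (14.5 ± 1.21) followed and the order among these and 04_FminiOFF is not settled, while 02_W3D1.2 exceeded the next type, 28_FmidiOFF (13.2 ± 0.762). The lowest types were 12_ooDS_NT (2.64 ± 0.160), 37_Novel (2.67 ± 0.376) and 31_M2 (2.92 ± 0.323). The highest type stood 2.47-fold over the median type of 7.35. The W3 type 01_W3D1.1 lay under the median type, at 4.50 ± 0.419. Across the types, r of Kcnip4 with the median cell volume was -0.17.

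Kcnip4 was the member closest to Kcnd2 over types, at r = 0.60 (n = 45 types). Of the 22 types above the median of Kcnd2, 15 were also above the median of Kcnip4. The types 30_Novel, 23_W3D2 and 03_FminiON are among the 5 highest of both genes. Type 39_Novel departed from this order, with the lowest Kcnd2 level of all types and a Kcnip4 level of 10.1 ± 1.18, above the median type.

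**Figure D2:**
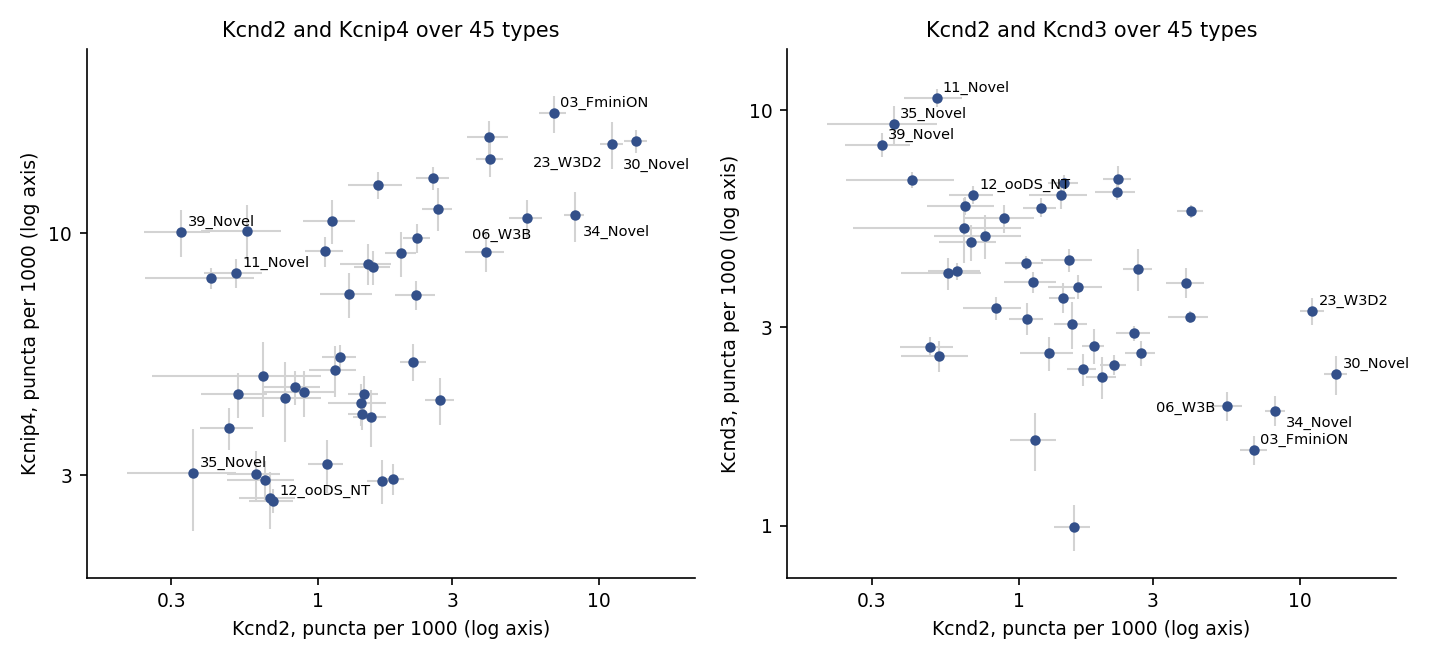
Level of Kcnd2 (x axis, puncta per 1000, log scale) against Kcnip4 (left) and Kcnd3 (right) in the 45 types, 1 point per type with bars for the SD over 5 retinas. Kcnip4 is high in the types at the right, such as 30_Novel and 03_FminiON, while Kcnd3 is highest in types at the left, such as 11_Novel and 35_Novel.

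Kcnip1, a KChIP that is widespread in neurons, varied least between its highest and lowest type. In 34_Novel its level was 10.0, 10.5, 10.2, 10.1 and 8.88 in retinas 1 to 5 (9.96 ± 0.634), and in 39_Novel it was 8.96, 10.3, 9.37, 9.54 and 9.62 (9.56 ± 0.481). These types overlapped and did not differ beyond their SDs, and both lay above 23_W3D2 (8.05 ± 0.580), 22_M5 (8.03 ± 0.679) and 08_Novel (7.71 ± 0.402). The lowest types were 09_Tbr1_Novel (1.65 ± 0.166), 17_Tbr1_S1 (1.94 ± 0.188) and 02_W3D1.2 (2.09 ± 0.220). The highest type stood 2.38-fold over the median type of 4.19 and 6.03-fold over the lowest. The 2 types highest in Kcnip1 sit at opposite ends of Kcnd2, with 34_Novel among the 3 highest and 39_Novel lowest, and the correlation of Kcnip1 with Kcnd2 over types was 0.16. Across the types, r was 0.34 with the median cell volume and 0.27 with the median puncta per cell.

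Kcnip3, whose protein is also known as the calcium-dependent transcriptional repressor DREAM, was highest in a different set of types. In 12_ooDS_NT, an ON-OFF direction-selective type, its level was 3.38, 3.35, 3.13, 3.35 and 3.23 in retinas 1 to 5 (3.29 ± 0.104), and in 14_ooDS_Cck it was 3.15, 3.51, 2.84, 3.64 and 2.93 (3.21 ± 0.350). The rare type 35_Novel, with 428 cells, held 4.44, 4.85, 2.96, 4.28 and 4.87 (4.28 ± 0.779). Type 44_Novel, with 314 cells and the highest levels of markers of several other cell classes, held 4.66, 3.63, 2.97, 5.51 and 2.10 (3.77 ± 1.35), and the part of those other cells in this value was not tested. The order of these 4 types is not settled, since none differed from the next beyond the larger SD. Type 25_Novel followed at 2.95 ± 0.275, and the lowest types were 34_Novel (0.370 ± 0.0410), 43_AlphaONS (0.411 ± 0.0232) and 39_Novel (0.421 ± 0.0976). The remaining ON-OFF direction-selective type, 16_ooDS_DV, lay at 0.562 ± 0.0741, under the median type of 0.933. Over types, Kcnip3 ran against Kcnd2 (r = -0.47) and Kcnip4 (r = -0.43) and with Kcnd3 (r = 0.29). Its correlation with the median puncta per cell of the types was -0.45.

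Kcnip2, the KChIP known for its part in the transient outward current of the heart, was the most concentrated of the 6 genes. In 45_AlphaOFFT, the alpha type with transient OFF responses, its level was 10.5, 10.1, 11.7, 13.6 and 10.1 in retinas 1 to 5 (11.2 ± 1.48). In 32_F_Novel it was 2.79, 2.25, 2.37, 2.78 and 2.24 (2.49 ± 0.279), and in the melanopsin type 33_M1 2.29, 2.30, 1.75, 2.35 and 2.04 (2.15 ± 0.254). The values of 45_AlphaOFFT lay far above those of all other types in each retina, and retina 4 was the highest. Type 42_AlphaOFFS followed at 1.19 ± 0.384 and 41_AlphaONT at 0.847 ± 0.0979. The fourth alpha type, 43_AlphaONS, was next to lowest at 0.204 ± 0.0305, above 35_Novel (0.158 ± 0.0963, with no punctum in retina 3) and under 24_Novel (0.253 ± 0.0481). The highest type stood 31.2-fold over the median type of 0.358. Type 45_AlphaOFFT made up 1.37% of the cells and held 32.7% of all Kcnip2 puncta. Between the quartiles of the types the level ran only from 0.331 to 0.463, and how much of that range is background of the assay was not measured here.

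**Figure D3:**
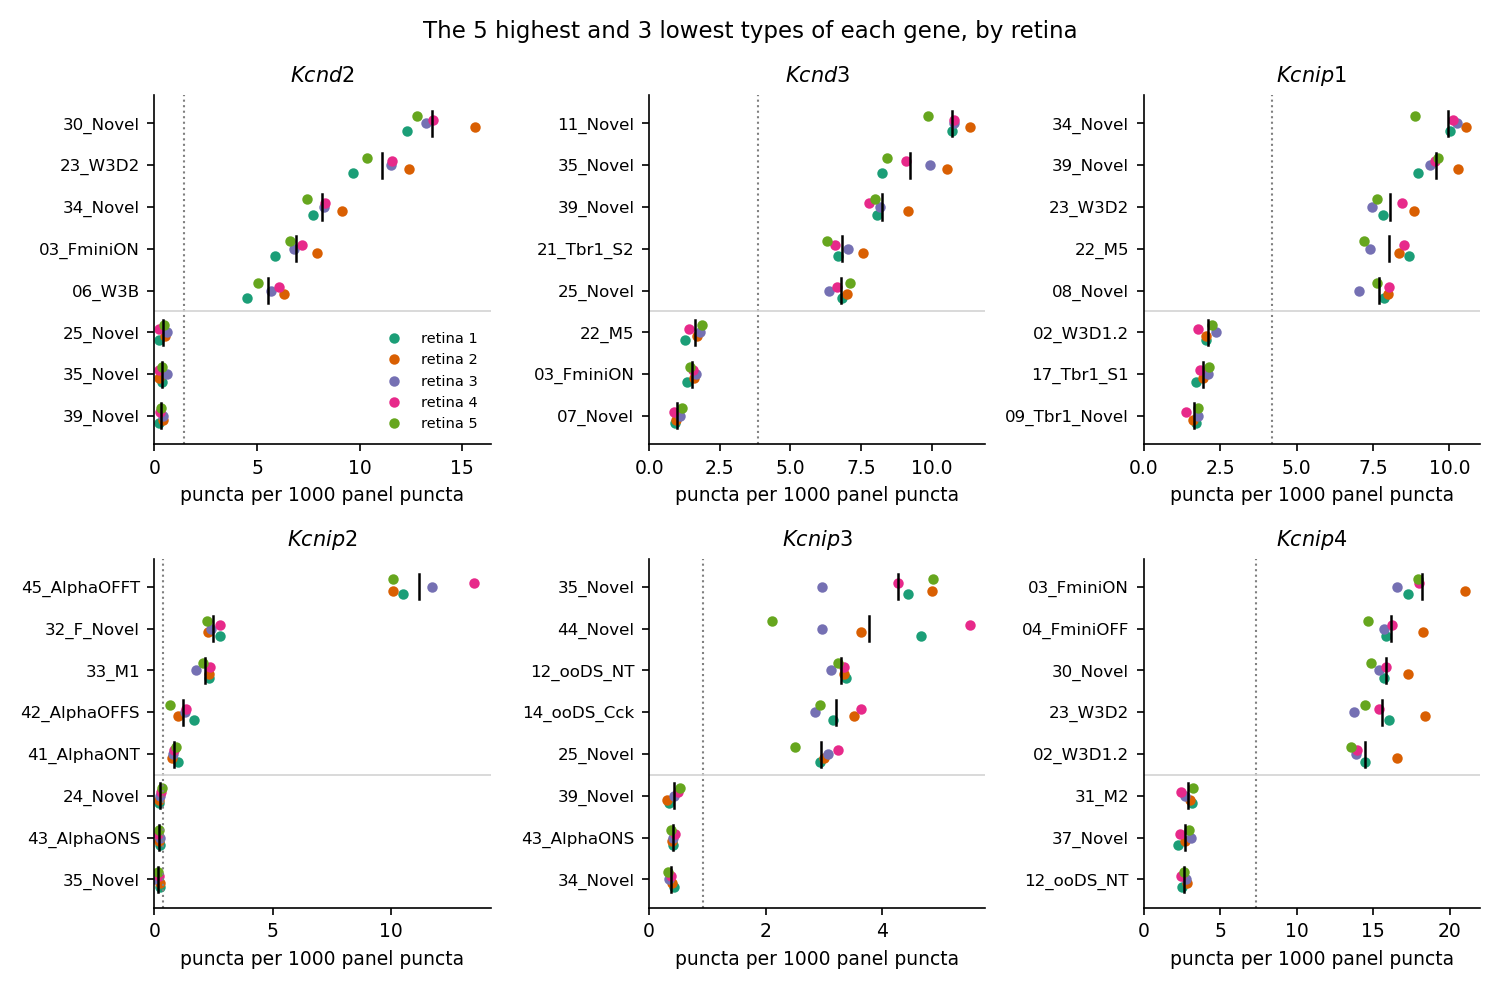
Levels (x axis, puncta per 1000 panel puncta) of each gene in its 5 highest and 3 lowest types, with 1 coloured point per retina, a black bar for the mean and a dotted line at the gene's median type. The highest and lowest types of a gene lie further apart than the retinas of 1 type. Neighbouring types can overlap, as with 44_Novel for Kcnip3 (2.10 to 5.51). For Kcnip2, 45_AlphaOFFT lies between 10.1 and 13.6 while 32_F_Novel lies between 2.24 and 2.79.

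Cells of 45_AlphaOFFT were not alike in Kcnip2. Of its 1806 cells, 1019 held at least 3 puncta (56.0% ± 3.49 over retinas) and 453 held none (26.6% ± 5.94). Poisson counts at the type's Kcnip2 level and each cell's depth would leave 3.79% of cells with none. The cells with at least 3 had a median of 483 panel puncta and the cells with none 307, so depth differed with the count. Median cell volume differed too, at 1049 against 653 (unit not stated). Since the groups were formed on Kcnip2 itself, the levels of other genes in them are given without a test, and the genes named were chosen after their values were seen. Cells with at least 3 Kcnip2 puncta had more Cdkn1c (8.76 against 1.37 puncta per 1000), Etv1 (16.8 against 5.42), Coch (37.4 against 17.7) and Spp1 (43.6 against 25.1), each in 5 of 5 retinas. Cells with none had more Ctxn3 (6.97 against 0.779), Pcdh11x (7.50 against 1.49), Calb1 (6.01 against 1.28) and Eomes (2.00 against 0.348), the other way in 5 of 5 retinas. The RGC marker Rbpms was closer (8.50 in cells with many puncta against 9.38), but the RGC markers Slc17a6 and Pou4f3 differed between the groups. Slc17a6 was lower in cells with many puncta in 5 of 5 retinas (mean log2 difference -0.329). Pou4f3 was higher in cells with many puncta in 5 of 5 retinas (1.68 against 0.599). Of the other members, only Kcnd3 ran in 1 direction in every retina, lower in cells with many Kcnip2 puncta (2.44 against 3.20). Whether some of the cells without Kcnip2 belong to other types was not tested.

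Outside 45_AlphaOFFT, cells with many Kcnip2 puncta were a minority. In 32_F_Novel, 281 of 2851 cells held at least 3 puncta (10.0% ± 1.85), and these had more Cdkn1c (2.84 against 0.448 in cells with none), Etv1 (4.39 against 1.19) and Spp1 (15.996 against 5.33), in 5 of 5 retinas. In 33_M1, 79 of 1468 cells did (4.84% ± 2.32), and these had more Cdkn1c (10.95 against 3.15), Tbx20 (14.5 against 5.27) and Opn4, the melanopsin gene (21.8 against 11.3), in 5 of 5 retinas. Spp1 was higher in them in 2 of 5 retinas only (3.57 against 3.29). Of the other members, Kcnip1 (2.62 against 4.84) and Kcnip4 (3.03 against 4.33) were lower in them in 5 of 5 retinas. Kcnd2, Kcnd3 and Kcnip3 were mixed over retinas. The 33_M1 cells with none had more of the endothelium marker Cdh5 (1.796 against 0.0777), in 5 of 5 retinas. They also had more of the microglia markers Tmem119 (1.53 against 0.401) and Aif1 (1.02 against 0.199), in 5 of 5 retinas. The part of other cell classes in the 33_M1 differences was not tested. The cells with at least 3 puncta were deeper in both types, with medians of 365 against 270.5 panel puncta in 32_F_Novel and 337 against 192 in 33_M1.

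The other panel genes most like each member over the 45 types were named by Pearson's r of log2(CPM + 1) of the panel puncta. For Kcnip2 they were Cdkn1c (0.83), Etv1 (0.71) and Gal (0.69), which were also the genes nearest to any member. For Kcnd2 they were Isl2 (0.50), Scn7a (0.46) and Anxa2 (0.42), and for Kcnd3 Cacng2 (0.54), Cacng7 (0.53) and Bhlhe22 (0.50). For Kcnip1 they were Sh3bgr (0.59), Vamp1 (0.49) and Kitl (0.48), for Kcnip3 Tmem215 (0.65) and Irx3 (0.63), and for Kcnip4 Grm4 (0.60), Cacnb3 (0.58) and Gria2 (0.55). Kcnh1, an EAG-family potassium channel, was the gene most opposite to both Kcnd2 (r = -0.65) and Kcnip4 (r = -0.70). The gene most opposite to Kcnip2 was the RGC marker Rbpms (r = -0.66). For the A-type or Kv4-related genes Kcna4, Kcnc4 and Kcnab1, r with the members ran from -0.38 (Kcna4 with Kcnip1) to 0.24 (Kcnc4 with Kcnip3).

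Grouped by the names of the types, the families differed in the pooled levels of the members. A family level pools all cells of the family, so types with many cells weigh more. The 5 F types were highest in Kcnip4 (15.04 ± 1.31) and low in Kcnd3 (2.39 ± 0.141). The 4 W3 types held Kcnd2 at 4.14 ± 0.528, Kcnd3 at 5.00 ± 0.195 and Kcnip4 at 10.1 ± 0.960. The 3 ON-OFF direction-selective types had the lowest family level of Kcnd2 (0.602 ± 0.134) and the highest of Kcnip3 (2.03 ± 0.127). Their Kcnip3 was 3.29 in 12_ooDS_NT and 3.21 in 14_ooDS_Cck, but 0.562 in 16_ooDS_DV, under the median type of 0.933. The 3 Tbr1 types had the highest family level of Kcnd3 (5.41 ± 0.295), with 6.84 in 21_Tbr1_S2, 4.29 in 09_Tbr1_Novel and 3.34 in 17_Tbr1_S1. The 4 alpha types were highest in Kcnip2 (3.78 ± 0.402), with the 3 alpha types other than 45_AlphaOFFT between 0.204 and 1.19. The 4 photosensitive types were highest in Kcnip1 (5.62 ± 0.308), with 8.03 in 22_M5, 5.98 in 31_M2, 4.24 in 33_M1 and 2.82 in 40_M1dup. A family level hides its types in the W3 group as well: Kcnd2 ran from 11.1 in 23_W3D2 down to 4.10 in 02_W3D1.2 and 1.45 in 01_W3D1.1.

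Over all RGCs of a retina, levels differed less than between types. Kcnd2 was 2.21, 2.98, 2.59, 2.63 and 2.32 in retinas 1 to 5, and Kcnip4 8.25, 9.23, 7.58, 7.83 and 7.44. Retina 2 was the highest in both genes. Kcnip1 ranged only from 4.59 to 4.76, Kcnd3 from 4.05 to 4.44, Kcnip3 from 1.16 to 1.27 and Kcnip2 from 0.570 to 0.696.

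The table gives each cell's position on a circle, which allowed the members to be compared between the sides of each retina. Radial distance was split at 0.5 and the X and Y axes at 0, and the sources used here give no anatomical direction for X or Y and do not say whether all retinas were turned the same way. A difference on X or Y pooled over retinas therefore holds only for the axes as deposited. Counts summed per retina and side were fitted over all 300 genes with edgeR's quasi-likelihood test with the retina as a block, and called at a Benjamini-Hochberg adjusted p under 0.05. No member was called on any axis. On the radial axis the panel had 20 of 300 genes called (6.67%), with 0 of 6 members, while 81 genes of the panel and 1 member had an unadjusted p under 0.05. On X the panel had 30 called (10%) and the members 0 of 6, with 80 genes and 0 members at an unadjusted p under 0.05, and on Y 0 genes were called (0%), with 29 genes and 3 members at an unadjusted p under 0.05. DESeq2 called 1 member beside 44 of 300 genes on the radial axis, 0 beside 50 on X and 1 beside 6 on Y. The panel's own counts rested on single retinas, with 2 to 53 genes called on the radial axis and 2 to 43 on X when 1 retina was left out.

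Kcnip1 differed along Y in the same direction in every retina, but not within sections. Its level was 4.90, 4.88, 4.91, 4.82 and 4.84 puncta per 1000 at Y below 0 in retinas 1 to 5, and 4.31, 4.60, 4.47, 4.35 and 4.53 at Y from 0 up. The lower side of Y was higher in each of the 5 retinas and the groups did not overlap. The log2 difference was -0.14 ± 0.03 (SE) with an adjusted p of 0.165 in edgeR, and DESeq2 gave the same direction with an adjusted p of 0.00420, so the call depends on the tool. With slides in place of retinas as the block, the edgeR difference was -0.04 (adjusted p = 0.846), and with sections it turned to 0.02 (adjusted p = 0.877), so neither the size nor the direction held within sections. Along Y in 4 bands, from the lowest to the highest, the mean level was 5.22 ± 0.304, 4.75 ± 0.105, 4.397 ± 0.147 and 4.68 ± 0.219 over retinas. With types held at the same mix on both sides, the difference was -0.12 ± 0.03 (adjusted p = 0.471 in limma, lower in 5 of 5 retinas), where 0 of 300 genes were called (0%) and 26 genes, 2 of them members, had an unadjusted p under 0.05.

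Kcnip3 and Kcnd2 had lower levels on the upper side of Y in most retinas and did not pass the test. Kcnip3 was 1.31, 1.33, 1.24, 1.36 and 1.18 at Y below 0 and 1.12, 1.19, 1.24, 1.11 and 1.15 from 0 up. It was lower in 4 of the 5 retinas, with retina 3 the exception, and the log2 difference was -0.15 ± 0.06 (adjusted p = 0.432 in edgeR). With sections in place of retinas as the block, Kcnip3 passed in edgeR at an adjusted p of 0.0108, as did Kcnip2 with the opposite direction (0.0126). That fit took 35 sections of the 5 retinas as if independent, so its p-values do not measure spread over retinas. For Kcnd2 the difference was -0.08 ± 0.03 (adjusted p = 0.432), lower in 5 of 5 retinas with sides that overlapped, and it was -0.03 with slides as the block (adjusted p = 0.827) and 0.03 with sections (adjusted p = 0.910). Kcnip2 was higher from 0 up by 0.18 ± 0.07 (adjusted p = 0.436), with retinas 1, 2 and 4 at 0.35, 0.30 and 0.31 and retinas 3 and 5 at -0.02 each. The short-wavelength cone opsin gene Opn1sw had log2 differences along Y of -1.47, -0.59, 0.24, -0.51 and 1.42 in retinas 1 to 5. Retinas 3 and 5 stood apart from the others in this gene too, but its levels were low (0.0335 to 0.211 over sides and retinas). The other cone opsin gene of the panel, Opn1mw, did not share this, at -0.54, 0.51, 0.24, 0.27 and 0.62, with only retina 1 below 0. The bearing of either opsin gene on the members was not tested.

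On the radial axis, Kcnip2 was 0.517, 0.550, 0.679, 0.659 and 0.595 in the centre and 0.587, 0.663, 0.714, 0.708 and 0.713 in the periphery. It was higher in the periphery in 5 of 5 retinas, with sides that overlapped over retinas. The log2 difference was 0.16 ± 0.06 (adjusted p = 0.133 in edgeR and 0.0429 in DESeq2), and 0.10 with slides or sections as the block in edgeR (adjusted p = 0.470 and 0.363). With types at the same mix it was 0.07 ± 0.04, higher in 3 of 5 retinas (adjusted p = 0.381 in limma, 0 of 300 genes called, 71 at an unadjusted p under 0.05 and 1 of these a member). Kcnip1 was higher in the periphery by 0.05 ± 0.03 (adjusted p = 0.265 in edgeR), in 5 of 5 retinas. It passed only with sections as the block (adjusted p = 0.0263 in edgeR), a fit that takes sections of 1 retina as if independent. Differences of the other 4 members on the radial axis ran from -0.05 to -0.02 and those of all 6 on X from -0.04 to 0.01, beside a median absolute difference over all genes of 0.08 on the radial axis and 0.07 on X.

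**Figure D4:**
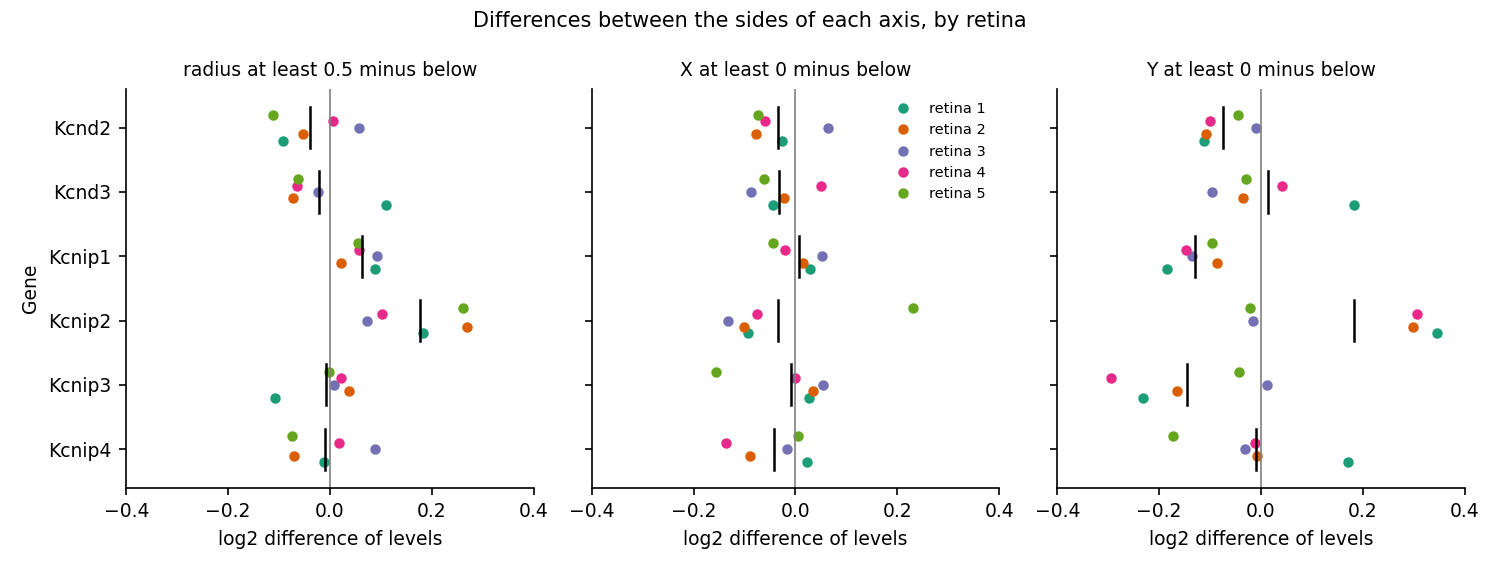
Log2 difference of each gene's level between the sides of the radial, X and Y axes (x axis), with 1 coloured point per retina and a black bar for their mean. Kcnip1 lies below 0 in all 5 retinas on Y and above 0 in all 5 on the radial axis, while Kcnip2 on X has 4 retinas below 0 and retina 5 at 0.23.

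Within single types, 2 pairs of a member and a type were called over the 3 axes. Sums needed at least 50 cells on both sides in at least 3 retinas, and edgeR p-values were adjusted, axis by axis, over every type and gene tested. On the radial axis, 242 of 10227 type-gene pairs were called (2.37%) and 0 of the 239 member pairs that passed the filter on low counts, with 26 at an unadjusted p under 0.05, as were 1620 of all pairs, and 0 called by DESeq2. Without retina 1, 2 member pairs and 440 pairs of all genes were called on this axis, and without retina 3, 1 member pair. On X, 32 of 11379 pairs were called (0.281%) and 1 of 258 member pairs, with 1151 pairs and 19 member pairs at an unadjusted p under 0.05. On Y, 31 of 11080 pairs were called (0.28%) and 1 of 252 member pairs, with 1321 pairs and 41 member pairs at an unadjusted p under 0.05.

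The member pair called on X was Kcnip2 in 45_AlphaOFFT. At X below 0 its level was 11.7, 12.2, 14.01, 15.9 and 9.54 in retinas 1 to 5, and from 0 up it was 9.59, 8.92, 9.37, 11.8 and 10.6. It was lower from 0 up in 4 of the 5 retinas, retina 5 ran the other way, and the sides overlapped over retinas. The log2 difference was -0.35 ± 0.06 (adjusted p = 0.00179 in edgeR). This SE comes from the edgeR model and does not show the full spread over retinas, in which retina 5 had the opposite sign. Without retina 2 the call was lost (-0.31, adjusted p = 0.0977), and without retina 5 it was -0.45 ± 0.05. In the band of X below -0.5 the level was 15.5, 13.8, 19.3, 17.8 and 7.88 in retinas 1 to 5, with retina 5 the lowest. Along Y the same pair was higher from 0 up in 4 of 5 retinas with retina 5 opposite again (13.1 below 0 and 8.95 from 0 up), and the difference of 0.02 ± 0.15 did not pass (adjusted p = 0.977).

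The member pair called on Y was Kcnip1 in 38_FmidiON, which had enough cells in retinas 1, 2 and 4 only. Its level was 5.55, 6.77 and 6.64 at Y below 0 and 4.86, 4.70 and 5.01 from 0 up, so the sides did not overlap in these 3 retinas. The log2 difference was -0.39 ± 0.10 (adjusted p = 0.0266 in edgeR). With a minimum of 20 cells per side it was -0.32 and did not pass (adjusted p = 0.272), nor did it in DESeq2 (adjusted p = 0.721). Leaving out any of these retinas left too few for the test. Over the types tested on Y, Kcnip1 was lower from 0 up in 34 of 42 types (median log2 difference -0.12) and Kcnip3 in 33 of 42 (-0.16), beside a median of 0.01 over all type-gene pairs. The types come from the same retinas and are not replicates of each other. Without retina 5, 11 member pairs and 227 pairs of all genes were called on Y. Without retina 1, 2 or 4 no member pair was called on Y.

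Of the 24 other potassium channel genes of the panel, edgeR called 0 higher and 2 lower in the periphery. Over the whole panel it called 10 of 300 genes each way on this axis (3.33%). On X and Y, 0 of the 24 were called in either direction. The 2 lower in the periphery were Kcnq3, an M-current subunit (-0.14 ± 0.03, adjusted p = 0.0488), and Kcnn2, a calcium-activated SK channel (-0.13 ± 0.03, adjusted p = 0.0398). The A-type or Kv4-related genes Kcna4, Kcnc4 and Kcnab1 were not called on any axis, and the lowest adjusted p among these 3 in edgeR was 0.301 for Kcnab1 on the radial axis.

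Detection of the members in the same cell was compared for all 15 pairs, in cells thinned to 100 puncta, as the log2 odds ratio in each retina. The exact two-sided sign-flip test over 5 retinas cannot go below p = 0.0625, and no pair could therefore pass 0.05. A value above 0 means that both genes were detected together more often than independent detection gives, not in most cells. Over all RGCs, 2 pairs lay above 0 in every retina and 8 pairs below 0. Kcnd2 with Kcnip4 had the highest value, 0.84, 0.93, 0.77, 0.94 and 0.76 in retinas 1 to 5 (0.85 ± 0.08, exact p = 0.0625, adjusted 0.0938). Kcnd3 with Kcnip3 followed at 0.22 ± 0.04. The lowest values were those of Kcnd2 with Kcnip3 (-0.57, -0.65, -0.59, -0.64 and -0.53, mean -0.59 ± 0.05), Kcnip3 with Kcnip4 (-0.54 ± 0.05) and Kcnd2 with Kcnd3 (-0.39 ± 0.08). No retina overlapped 0 in these 5 pairs.

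Within types, where each cell is set only against cells of its own type, the values were smaller. Kcnd2 with Kcnip4 was 0.11, 0.15, 0.15, 0.13 and 0.08 in retinas 1 to 5 (0.12 ± 0.03, exact p = 0.0625, adjusted 0.156), and Kcnip1 with Kcnip4 was 0.12 ± 0.08, both above 0 in 5 of 5 retinas. Kcnip3 with Kcnip4 was -0.20, -0.23, -0.17, -0.16 and -0.21 (-0.19 ± 0.03), and Kcnd2 with Kcnip3 was -0.19 ± 0.07, both below 0 in 5 of 5. Kcnd3 with Kcnip4 (-0.08 ± 0.06) and Kcnd3 with Kcnip1 (-0.06 ± 0.03) were also below 0 in every retina, and the other 9 pairs were not in 1 direction. For Kcnd2 with Kcnd3 the value within types was -0.07 ± 0.10, below 0 in 4 of 5 retinas. These directions hold for thinned cells: with cells as deposited, which differ in depth, 12 pairs over all RGCs and 15 of 15 within types lay above 0 in every retina, and 9 of the values in 1 direction turned sign.

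**Figure D5:**
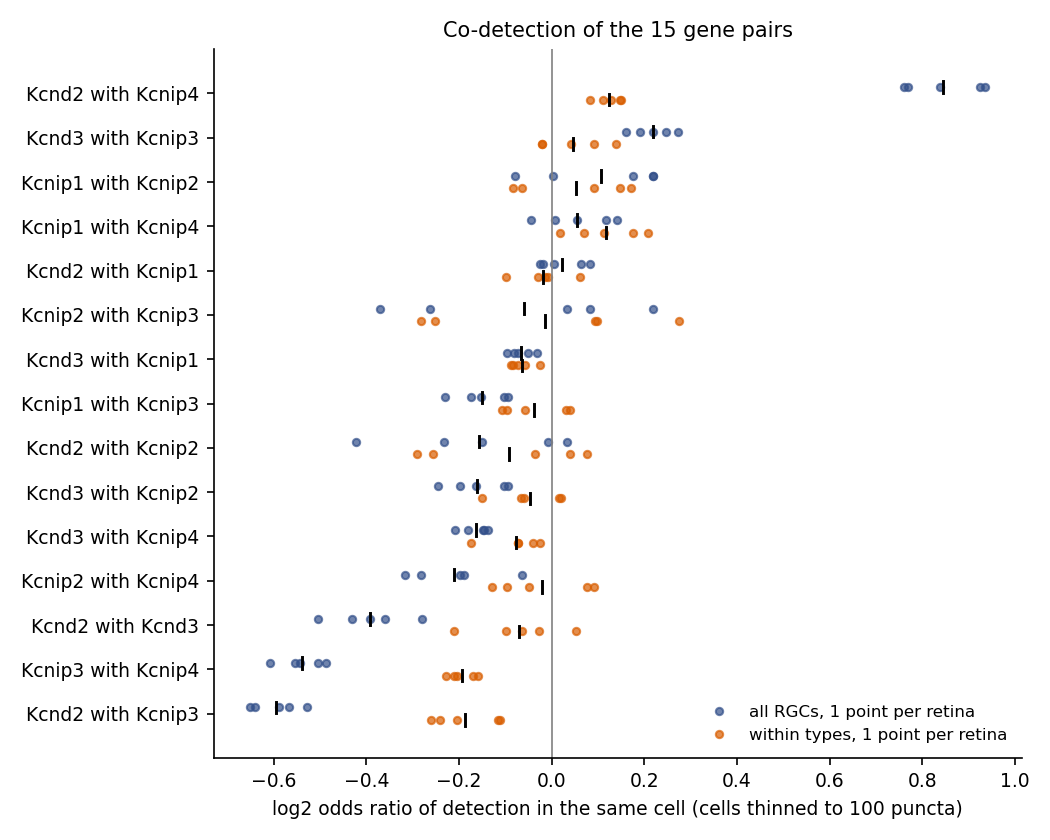
Log2 odds ratio of detection in the same cell (x axis) for the 15 pairs of members, in cells thinned to 100 puncta, with blue points over all RGCs, orange points within types, 1 point per retina and black bars for the means. Kcnd2 with Kcnip4 is the highest pair at 0.85 over all RGCs and 0.12 within types. The lowest mean over all RGCs is that of Kcnd2 with Kcnip3 (-0.59). Within types Kcnip3 with Kcnip4 (-0.194) and Kcnd2 with Kcnip3 (-0.187) are lowest.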

How the data were processed

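The authors deposited 1 table of whole-number puncta counts per gene and cell, with each cell's type, retina, section, slide and position, per the file headers. Segmentation, cell filters and type assignment are not given in the sources used here, and the 4 deposited samples are slide pairs that the labels do not tie to single retinas. Every cell held at least 100 puncta. The members and lists were chosen with earlier results of these data known.

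Levels are puncta per 1000 panel puncta, summed per type and retina. A type was said to differ from the next when the gap of means exceeded the larger SD. Named were the 6 genes, their 5 highest and 3 lowest types, the 3 most similar panel genes, and type-gene pairs or related channels past the threshold, apart from items that are not reported here. Counts summed per retina and side were tested with edgeR 4.0.16 (TMM, quasi-likelihood, retina as block) after its filter on low counts, with DESeq2 1.42.0 as an alternative. Within-retina differences at an equal mix of types were tested with limma 3.58.1 in R 4.3.3 on log2(CPM + 1) of the panel puncta. Co-detection used cells thinned to 100 puncta and an exact sign-flip test, in Python 3.11.15, with types combined by Mantel-Haenszel. The fits were tested on simulated data. Alternatives covered the tool, the block, the splits, the cell minimum, thinning and each retina left out. Slide within retina and section were run as blocks among these. As deposited, 1 slide name appeared under retinas 4 and 5 and 1 under retinas 3 and 5. Whether the slides themselves were shared is not known. Promoter sequences are from RefSeq (GRCm38.p6).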

Additional observations from a re-analysis of the deposited data

Results flagged for a closer look

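Among 103 sets of 5 retinas examined, 4 had 1 retina far from the others by Dixon's criterion, and chance gives about 1 in 20. The radial log2 difference of Kcnd3 was 0.11 in retina 1 and between -0.07 and -0.02 in the others. That of Kcnip3 was -0.11 in retina 1 and at most 0.04 in size in the others. On X, Kcnip2 was at 0.23 in retina 5 and between -0.13 and -0.08 in the others, and Kcnip3 was at -0.16 in retina 5 and at most 0.05 in size in the others.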

How the results depend on the processing

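No member was called over all RGCs on any axis with any 1 retina left out. Leaving out 1 retina at a time gave 2 to 53 panel genes on the radial axis (53 without retina 1), 2 to 43 on X and 0 to 2 on Y, and at the same mix of types 0 to 21 on the radial axis (21 without retina 1) and 0 to 1 on Y. Within types it gave 55 to 440 pairs on the radial axis with 0 to 2 member pairs, 10 to 115 on X with 0 to 1, and 1 to 227 on Y with 0 to 11. Along Y these were 11 and 227 without retina 5.

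DESeq2 called 44 panel genes and 1 member on the radial axis, 50 panel genes on X, and 6 panel genes and 1 member on Y, and within types 127 pairs on the radial axis, 20 on X and 0 member pairs on Y. With sections as the block, 41 panel genes and 1 member were called on the radial axis and 41 and 2 on Y. With slides as the block, 27 panel genes were called on the radial axis, 31 on X and 0 on Y, with 0 members. Along Y, Kcnip1 then moved from -0.14 to -0.04, and to 0.02 with sections. With no retina block, 1 panel gene was called on the radial axis and 1 on X. Splitting at each retina's median gave 39 on the radial axis. A pseudocount of 10 gave 1 gene on X at the same mix of types. With at least 20 cells per side, 1 pair and 0 member pairs were called within types on Y. The retina was the replicate block except where stated, and the cause of these shifts was not tested. Fits with slides or sections as the block take parts of the same retina as replicates, so their p-values do not measure spread over retinas.

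The log2 ratio of the highest to the median type moved from 1.48 to 1.54 for Kcnd3 and from 4.97 to 4.70 for Kcnip2 in thinned cells. With puncta per cell it was 1.54 in place of 1.25 for Kcnip1, 5.35 for Kcnip2 and 1.11 in place of 1.30 for Kcnip4. With cells as deposited, co-detection turned sign over all RGCs for Kcnd3 with Kcnip1 (0.40), Kcnip2 (0.16) and Kcnip4 (0.32), Kcnip1 with Kcnip3 (0.20) and Kcnip2 with Kcnip4 (0.19). Within types it turned for Kcnd2 with Kcnip3 (0.20), Kcnd3 with Kcnip1 (0.48) and Kcnip4 (0.53), and Kcnip3 with Kcnip4 (0.20). Pairs in 1 direction were then 12 above and 3 below 0 over all RGCs and 15 and 0 within types. Over 1 retina left out, pairs above 0 numbered 2 to 3 and pairs below 0 numbered 8 to 9 over all RGCs, and 2 and 4 to 5 within types. The separate fit of Kcnip2 in 45_AlphaOFFT without retina 5 was chosen after seeing the data. Type 35_Novel held 428 cells, 407 of them without a Kcnip2 punctum, so its lowest levels rest on few puncta.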
